A study of Mus musculus with 6 samples.

Results

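The microRNAs (miRNAs) miR-124 and miR-128 were followed through 5 mature arms, listed as mmu-miR-124-3p, mmu-miR-124-5p, mmu-miR-128-3p, mmu-miR-128-1-5p and mmu-miR-128-2-5p, which were picked by these names from the 1182 features of a small RNA count table. All 5 were in the table and all 5 passed the filter on low counts. The tissue was the cortex of adult male mice without treatment, from Fmr1 knockout (KO) mice and from wild type (WT) siblings of matched age, with 3 libraries per genotype. Total RNA of whole cortex was used, so each value is a mean over all cell types, and fewer cells of a type cannot be told apart from less of its RNA per cell. The product of Fmr1, called FMRP, binds messenger RNAs and controls their translation in neurons. The Fmr1 transcript is not a row of the miRNA table, so the genotype labels could not be checked against it. The labels do not name the Fmr1 allele.

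A miRNA gene is transcribed into a hairpin, from which a duplex of a 5′ arm (5p) and a 3′ arm (3p) is cut. One arm is usually kept in the Argonaute protein as the guide, and its seed, bases 2 to 8 from the 5′ end, pairs with target messenger RNAs. In vertebrates miR-124 is a hallmark of neurons, where it represses genes of other cell types such as the splicing regulator Ptbp1, and miR-128 is a brain-enriched miRNA known in mice for restraining the excitability of neurons. For both miRNAs the 3p arm is the guide. In Drosophila the FMRP homologue has been linked to the maturation of miR-124.

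The arms of miR-128 show how 2 genes can feed a single guide. RefSeq (GRCm38.p6) gave mature sequences for 3 of the 5 arms, all of miR-128. They are written 5′ to 3′ with the seed in capitals, to show that both 5p arms share a seed which differs from that of the guide.
miR-128-3p: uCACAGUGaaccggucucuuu
miR-128-1-5p: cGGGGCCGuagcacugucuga
miR-128-2-5p: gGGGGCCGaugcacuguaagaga
The guide is the same from both genes. The 5p arms are identical at 16 of their first 21 bases and differ by C1G, U9A, A10U, C18A and U19A, counted from 1 at the 5′ end, with the base of miR-128-1-5p first. The arm miR-128-2-5p is 23 bases long, against 21 for miR-128-1-5p, so a read of either 5p arm can be assigned to its gene, whereas a read of miR-128-3p cannot.

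The 2 hairpins are shown with their mature arms in capitals.
Mir128-1: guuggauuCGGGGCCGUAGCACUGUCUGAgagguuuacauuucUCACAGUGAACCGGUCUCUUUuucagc
Mir128-2: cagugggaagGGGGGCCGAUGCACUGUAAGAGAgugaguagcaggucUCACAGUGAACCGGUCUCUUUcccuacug
Mir128-1 lies on the plus strand at chr1:128202361-128202430, in an intron of the protein-coding gene R3hdm1. Mir128-2 lies on the minus strand at chr9:112118636-112118711, in an intron of Arpp21, which encodes a phosphoprotein regulated by cyclic AMP. The 3 genes of miR-124 are on the plus strand in exons of long noncoding RNAs. They are Mir124a-1 at chr14:64590657-64590741 in Mir124a-1hg, Mir124a-2 at chr3:17795662-17795770 in Mir124-2hg, and Mir124a-3 at chr2:180894040-180894107 in Gm27032. The table sums the copies of a mature arm, so the share of each miR-124 gene was not resolved.

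The libraries held between 11182888 and 14385332 miRNA reads in KO and between 13225790 and 15733876 in WT. Levels are in CPM, counts scaled to a common library size, after correction of library sizes by TMM, whose factors ran from 0.8265 (KO replicate 2) to 1.092 (KO replicate 1). KO replicate 3 was the highest library for 159 of the 541 tested miRNAs and the lowest for 208, more than any other library in each case. For most miRNAs the KO libraries were further apart than the WT libraries, with an SD of log2 CPM that was higher in KO for 452 of 541.

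Both guides were well above their 5p arms, and they differed widely from each other in level. The guide miR-128-3p was the third most abundant feature in all 6 libraries and took from 8.74% to 10.5% of the reads in KO libraries and from 10.3% to 10.8% in WT libraries. The features above it were miR-9-5p and miR-9b-3p, whose counts are within 3% of each other, so its rank and share depend on counting both. The guide miR-124-3p ranked between 40 and 50, with 0.107% to 0.230% of reads in KO and 0.156% to 0.188% in WT. Next came miR-124-5p, at ranks 218 to 234, and miR-128-1-5p, at ranks 189 to 235, whose order was not stable, since miR-124-5p had more reads in 1 of 3 KO libraries and in 2 of 3 WT libraries. The lowest was miR-128-2-5p, at ranks 253 to 286 and below miR-128-1-5p in 3 of 3 KO libraries and 3 of 3 WT libraries. Each read spans a whole mature miRNA, so these CPM levels need no length term, but ligation and PCR favour some sequences over others, and that bias was not measured here.

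No arm of miR-124 or miR-128 passed the test for a difference between the genotypes. At an adjusted p under 0.05 the count was 0 of the 5 arms and 0 of all 541 tested miRNAs (0%, edgeR quasi-likelihood test, Benjamini-Hochberg adjustment over 541). At an unadjusted p under 0.05, 0 of 5 passed, where 35 of 541 did (6.47%), 18 higher and 17 lower. DESeq2 and limma-voom called 0 as well, with 40 of 1182 and 34 of 541 at an unadjusted p under 0.05, none of them one of the 5. For each of the 5 arms the KO and WT libraries overlapped in level, while they did not overlap for 15.7% of all tested miRNAs. The median log2 fold change (KO over WT) of the 5 was -0.10, beside 0.03 over all tested miRNAs, and their values went from -0.14 to 0.23.

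The guide miR-128-3p had 96339, 105761 and 90409.7 CPM in the KO libraries, against 99663, 101759 and 111894 CPM in the WT libraries. KO replicate 3 was the lowest and WT replicate 3 the highest, and KO replicate 2 lay within the WT range. Means were 97503 ± 7741.5 CPM (SD, n = 3) in KO and 104439 ± 6541 CPM (SD, n = 3) in WT. The log2 fold change was -0.10 (SE 0.13, 95% interval -0.40 to 0.20, adjusted p = 0.86, edgeR). This interval covers folds from 0.759 to 1.149, and it was the narrowest of the 5, at 0.30 log2 units to either side beside a median of 0.64 over all tested miRNAs.

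The guide miR-124-3p split the KO libraries. It had 1354, 1297 and 2118 CPM in KO, against 1796, 1829.5 and 1611 CPM in WT. KO replicates 1 and 2 lay below every WT library and KO replicate 3 above every WT library. Means were 1589.9 ± 459 CPM (SD) for the 3 KO libraries and 1745 ± 118 CPM (SD) for the 3 WT libraries, giving -0.13 as log2 fold change (SE 0.21, 95% interval -0.61 to 0.34, adjusted p = 0.882, edgeR). Without KO replicate 3 the log2 fold change was -0.38 (95% interval -0.62 to -0.14, unadjusted p = 0.00413, adjusted p = 0.0885, edgeR), still short of the threshold. The fit without that library called 18 of 560 miRNAs, and miR-124-3p was not one of them. In that fit 97 of 560 had an unadjusted p under 0.05, where 35 of 541 did with all libraries. Without KO replicate 1 or 2 the log2 fold change was -0.02 or -0.04.

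**Figure D1:**
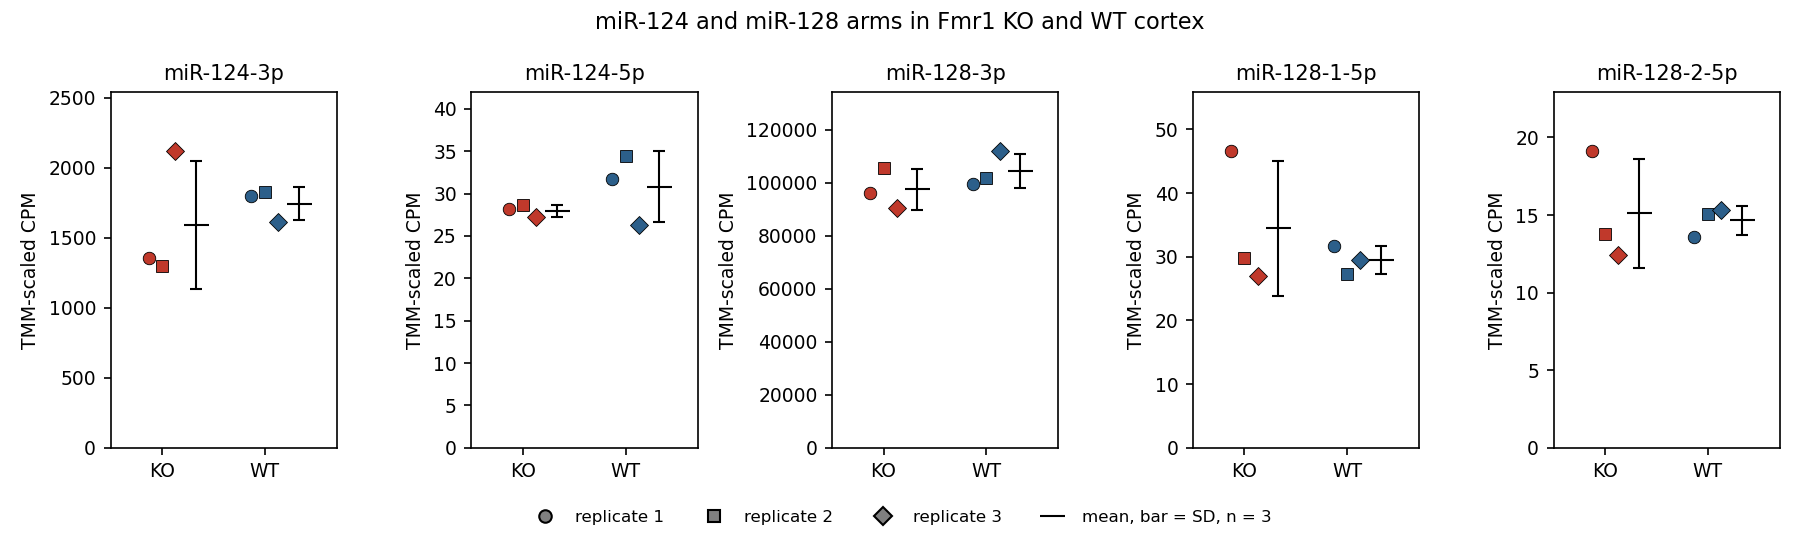
Level (TMM-scaled CPM, linear axes from 0) of each miR-124 and miR-128 arm in the 3 KO and 3 WT libraries, with the mean and SD beside the points. KO replicate 3 is the highest library for miR-124-3p at 2118 CPM and KO replicate 1 the highest for both miR-128 5p arms, while the groups overlap in all 5 panels.

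The passenger arms were present at low levels. For miR-124-5p the KO libraries had 28.2, 28.6 and 27.2 CPM, against 31.7, 34.5 and 26.2 CPM in the WT libraries. The KO values were close together and lay inside the WT range, with means of 28.0 ± 0.717 CPM (SD) for the 3 KO libraries and 30.8 ± 4.18 CPM (SD) for the 3 WT libraries. The log2 fold change was -0.14 (SE 0.18, 95% interval -0.55 to 0.28, adjusted p = 0.86, edgeR). The library that stood out for miR-124-3p, KO replicate 3, had no excess of miR-124-5p.

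The value of miR-124-5p may not be its own. Another feature, miR-124b-3p, had between 94.0% and 100.3% as many reads as miR-124-5p in every library, and no other feature stayed within 10% of any of the 5 arms. RefSeq places the miR-124b hairpin at chr3:17795685-17795741, inside the Mir124a-2 hairpin. The use of strand in counting is not given in the sources used here, so the reads of miR-124-5p and miR-124b-3p cannot be told apart. Pairs of nearly the same counts were not limited to this arm. Among features with at least 200 reads, 14 other pairs stayed within 3% of each other in every library, such as miR-129-5p and miR-129b-3p.

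The arm miR-128-1-5p, which reports the R3hdm1 gene copy, had 46.5, 29.8 and 27.0 CPM in KO, against 31.7, 27.2 and 29.5 CPM in WT. A single library, KO replicate 1, was above all others, and KO replicate 3 was the lowest of the 6. Means were 34.5 ± 10.6 CPM (SD) for the 3 KO libraries and 29.5 ± 2.21 CPM (SD) for the 3 WT libraries, giving 0.23 as log2 fold change (SE 0.24, 95% interval -0.32 to 0.77, adjusted p = 0.818, edgeR). Without KO replicate 1 it was -0.04. Without KO replicate 3 it was 0.39 (unadjusted p = 0.046, adjusted p = 0.271, edgeR), in a fit where 97 of 560 miRNAs had an unadjusted p under 0.05.

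The Arpp21 copy, read through miR-128-2-5p, had the same order of KO libraries. Levels were 19.1, 13.8 and 12.4 CPM in KO, against 13.6, 15.1 and 15.3 CPM in WT, with KO replicate 1 again the highest of the 6 and KO replicate 3 the lowest. Means were 15.1 ± 3.52 CPM (SD) for the 3 KO libraries and 14.7 ± 0.955 CPM (SD) for the 3 WT libraries, giving 0.05 as log2 fold change (SE 0.23, 95% interval -0.48 to 0.57, adjusted p = 0.954, edgeR). Without KO replicate 1 it was -0.15. On a log2 scale with 0.5 CPM added, KO replicate 1 stood 0.65 above the WT mean for miR-128-1-5p and 0.37 above it for miR-128-2-5p, but at -0.11 relative to it for miR-128-3p.

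**Figure D2:**
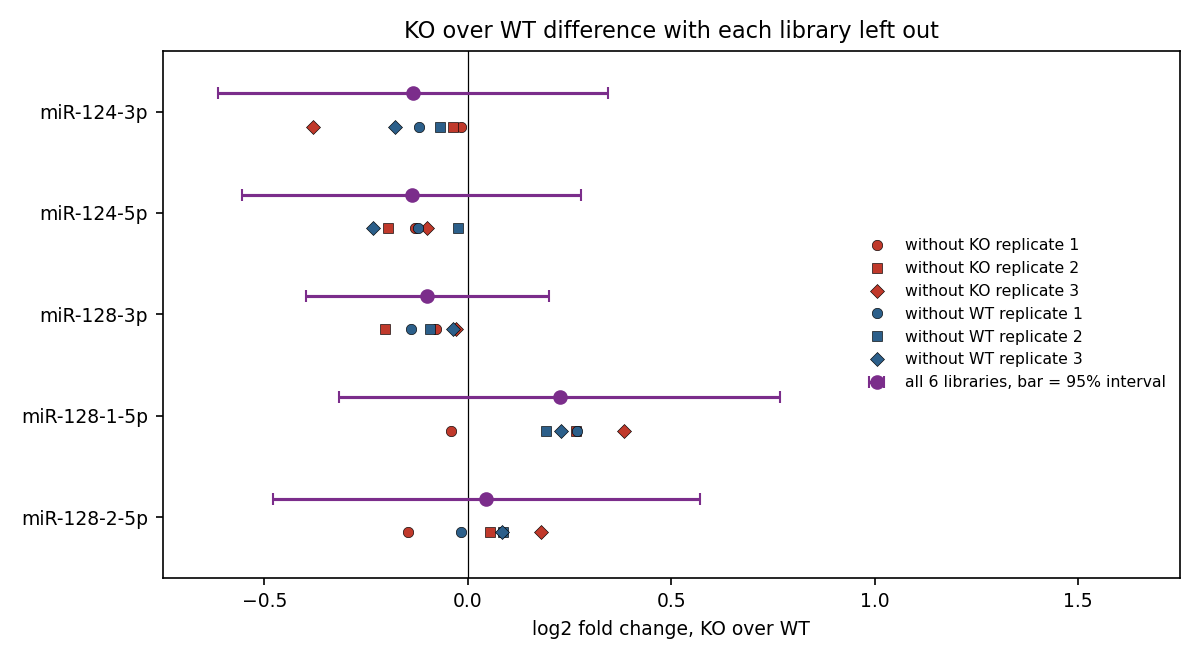
Log2 fold change (KO over WT) of each arm from the edgeR fit, with all 6 libraries (purple, bar = 95% interval) and with each library left out in turn (red for a KO library, blue for a WT library). All 5 intervals include 0, miR-124-3p moves to -0.38 without KO replicate 3, and the miR-128 5p arms move to -0.04 and -0.15 without KO replicate 1.

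Ratios within a library asked whether arm use or gene use differed between genotypes without any scaling between libraries. There were 5 such comparisons, each with an exact two-sided permutation test over libraries that cannot give a p below 0.1, and p-values were adjusted over the 5. None passed.

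The guide miR-124-3p had 48.0, 45.4 and 77.9 reads per read of miR-124-5p in KO, against 56.6, 53.1 and 61.4 in WT. KO replicates 1 and 2 were below and KO replicate 3 above all WT libraries. Means were 57.1 ± 18.1 (SD) for the 3 KO libraries and 57.0 ± 4.16 (SD) for the 3 WT libraries, and the mean log2 ratio differed by -0.04 (exact permutation p = 1, adjusted p = 1). Put as a share, miR-124-5p made up 1.27% of miR-124 reads in KO replicate 3 (Wilson 95% interval 1.14% to 1.41%), below the other KO libraries at 2.04% and 2.16% and the WT libraries at 1.74%, 1.85% and 1.603%. The lowest of these other intervals began at 1.45%, so KO replicate 3 stood apart by more than counting error, which is all that these intervals cover. It was not alone in this, since the intervals of KO replicate 2 (1.94% to 2.395%) and WT replicate 3 (1.45% to 1.77%) did not overlap either.

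For miR-128 the guide outnumbered its 5p arms far more strongly. There were 1467, 2427 and 2290 reads of miR-128-3p per read of the summed 5p arms in KO, against 2204, 2404 and 2494 in WT. Of the KO libraries, replicate 1 lay outside the WT range and replicates 2 and 3 within it. KO replicate 1 had 962 reads of 5p arms, against 479 to 690 in the other 5 libraries. Means were 2062 ± 519 (SD) for the 3 KO libraries and 2367 ± 149 (SD) for the 3 WT libraries, with a difference in mean log2 ratio of -0.23 (exact permutation p = 0.6, adjusted p = 1). Without KO replicate 1 the difference was -0.004. The 5p share of miR-128 reads was 0.0681% in that library (Wilson 95% interval 0.0639% to 0.0726%), with 0.0412% and 0.0437% in the other KO libraries and 0.0401% to 0.0454% in the WT libraries.

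The R3hdm1 copy gave more 5p reads than the Arpp21 copy in all 6 libraries. Of the reads of both miR-128 5p arms, miR-128-2-5p took 29.1%, 31.7% and 31.5% in KO, against 30.0%, 35.7% and 34.2% in WT. The values overlapped, and all KO values were below the higher 2 WT values. As a ratio, miR-128-2-5p had 0.445 ± 0.0296 (SD) reads per read of miR-128-1-5p over the 3 KO libraries and 0.501 ± 0.0647 (SD) over the 3 WT libraries, a difference of -0.16 in mean log2 ratio (exact permutation p = 0.3, adjusted p = 0.75). KO replicate 1, with the most 5p reads, had 29.1% (Wilson 95% interval 26.3% to 32.1%), which overlaps the intervals of the other KO libraries. That library thus had more reads of both 5p arms, at a share of the Arpp21 copy like that of the other KO libraries. How much guide each gene gives cannot be read from the 5p arms.

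Set against each other, the 2 guides kept no fixed proportion. There were 71.2, 81.5 and 42.7 reads of miR-128-3p per read of miR-124-3p in KO, against 55.5, 55.6 and 69.5 in WT. The KO libraries lay on both sides of the WT range, with means of 65.1 ± 20.1 (SD) for the 3 KO libraries and 60.2 ± 8.03 (SD) for the 3 WT libraries. The difference in mean log2 ratio was 0.07 (exact permutation p = 0.9, adjusted p = 1). All 5 arms together took 10.67%, 8.85% and 10.045% of reads in KO, against 10.45%, 10.65% and 10.975% in WT, nearly all of it miR-128-3p. This is a difference of -0.83 percentage points (exact permutation p = 0.3, adjusted p = 0.75). KO replicate 2, with the lowest share, had the highest level of miR-9-5p, the most abundant miRNA, at 316153 CPM. With the 5 most abundant other miRNAs left out of the total, the share was 21.0%, 21.8% and 23.3% in KO, against 21.5%, 22.3% and 23.1% in WT. With each pair of features of nearly the same counts entered once in the total, the share was 13.8%, 12.3% and 13.7% in KO, against 13.7%, 14.0% and 14.4% in WT.

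**Figure D3:**
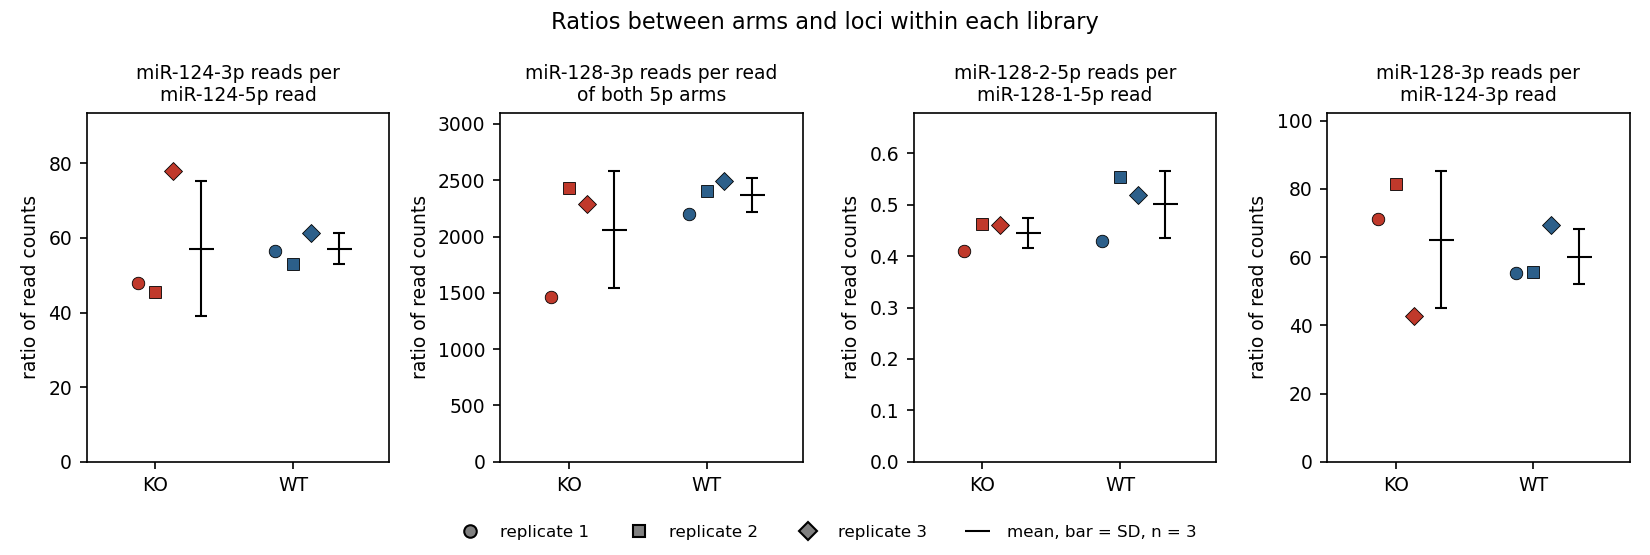
Ratios of read counts within each library (linear axes from 0) for the arms of miR-124, the arms of miR-128, the R3hdm1 and Arpp21 copies of miR-128, and the 2 guides, with mean and SD. KO replicate 3 has the highest 3p to 5p ratio of miR-124 at 77.9 and KO replicate 1 the lowest of miR-128 at 1467, and KO and WT overlap in all 4 panels.

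The arms differed among themselves in how far the libraries of a genotype spread. Across the tested miRNAs, log2 CPM had a median SD of 0.40 among KO libraries and 0.14 among WT libraries. For miR-124-3p it was 0.39 in KO and 0.10 in WT, for miR-128-1-5p 0.42 and 0.11, and for miR-128-2-5p 0.32 and 0.09. Among the 62 miRNAs within a factor of 4 of the level of miR-124-3p, the median SD was 0.23 in KO and 0.07 in WT, and 48 had a lower SD in KO than miR-124-3p. The guide miR-128-3p had 0.11 in KO and 0.09 in WT, and 33 of 541 miRNAs had a lower SD in KO. The 4 miRNAs within a factor of 4 of its level had a median of 0.35 in KO and 0.06 in WT. These 4 include both miR-9-5p (0.40 in KO) and miR-9b-3p, whose counts are nearly the same, and miR-143-3p (0.16 in KO), so they are not 4 separate measures. The exception was miR-124-5p, with 0.04 in KO and 0.20 in WT. It had the fourth lowest SD in KO of all tested miRNAs, since 3 were lower. This SD rests on 3 libraries with 413, 340 and 330 reads, where counting error alone gives some spread. The low value is therefore not shown to be a trait of this arm.

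Other miRNAs carry the 7 seed bases of miR-128-3p at a neighbouring position. Among the 970 features with a RefSeq sequence, none other held them at bases 2 to 8, and 3 held them shifted by 1 base. The sequences are shown with the shared bases in capitals.
miR-27b-3p: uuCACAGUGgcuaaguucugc
miR-27a-3p: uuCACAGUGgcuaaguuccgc
miR-216a-3p: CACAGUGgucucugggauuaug
The broadly expressed miR-27b-3p (chr13:63300760-63300780) had 3189, 3810.1 and 2478 CPM in KO, against 3639, 3817 and 3179 CPM in WT. These overlapped, with a log2 fold change of -0.17 (SE 0.18, adjusted p = 0.828, edgeR). Its paralog miR-27a-3p (chr8:84208727-84208747) had 77.1, 95.05 and 79.96 CPM in KO, against 121.3, 127.8 and 98.5 CPM in WT. All KO libraries were below all WT libraries, but the log2 fold change of -0.46 (SE 0.20, 95% interval -0.92 to -0.01) had an unadjusted p of 0.047 and an adjusted p of 0.747 (edgeR). The pair is nearly identical in sequence and can share reads. Levels of miR-216a-3p were 0.749 ± 0.552 CPM (SD) for the 3 KO libraries and 1.02 ± 0.508 CPM (SD) for the 3 WT libraries.

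The miRNAs whose pattern over the 6 libraries was most like that of each guide were taken by Pearson's r of log2 CPM, out of 297 miRNAs with a mean of at least 10 CPM. They were picked as the highest values, so r is a description. For miR-124-3p they were miR-127-5p (r = 0.957), let-7e-5p (r = 0.945) and miR-22-3p (r = 0.920). All 3 were highest in KO replicate 3 and had their lowest values in KO replicate 2, as did miR-124-3p. For instance miR-22-3p had 1765, 1549 and 2530.4 CPM in KO, against 1935, 2354 and 2092 CPM in WT. For miR-128-3p they were miR-322-3p (r = 0.955), miR-3065-3p (r = 0.901) and miR-344f-3p (r = 0.866). By ranks, Spearman's rho was 0.943, 0.829 and only 0.486 in that order. These 3 were lowest in KO replicate 3, and miR-322-3p had 18.5, 28.9 and 14.6 CPM in KO, against 22.1, 24.5 and 28.4 CPM in WT.

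Other neuron-enriched miRNAs did not pass the test either. Of 16 on the list, all tested, 13 had higher and 3 lower fitted values in KO, where 284 were higher and 257 lower of all 541. The 16 are not separate measures, since they hold both arms of miR-9, miR-132 and miR-212 and several arms of miR-129. Of the 16, 0 passed the edgeR threshold and 0 had an unadjusted p under 0.05, with a median log2 fold change of 0.19 beside 0.03 over all tested miRNAs. The most abundant was miR-9-5p, which acts in neural progenitors and neurons, with 183266, 316153 and 228914 CPM in KO, against 208016, 214168 and 226567 CPM in WT, and its counts are within 3% of those of miR-9b-3p in every library. Next were miR-129-5p (log2 fold change -0.11, SE 0.14), whose counts are likewise within 3% of those of miR-129b-3p, miR-218-5p, a motor neuron miRNA (0.26, SE 0.18), and miR-132-5p, from a gene induced by neuronal activity (0.21, SE 0.13). KO replicate 3, which had the most miR-124-3p, was also the highest library for 9 of these 16, where it was highest for 29.4% of all tested miRNAs. The largest fold changes of the list were those of miR-135a-5p (log2 fold change 1.31, SE 0.59) and miR-129-1-3p (0.97, SE 0.43), named after their values were seen, and both had their highest value in KO replicate 3.

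**Figure D4:**
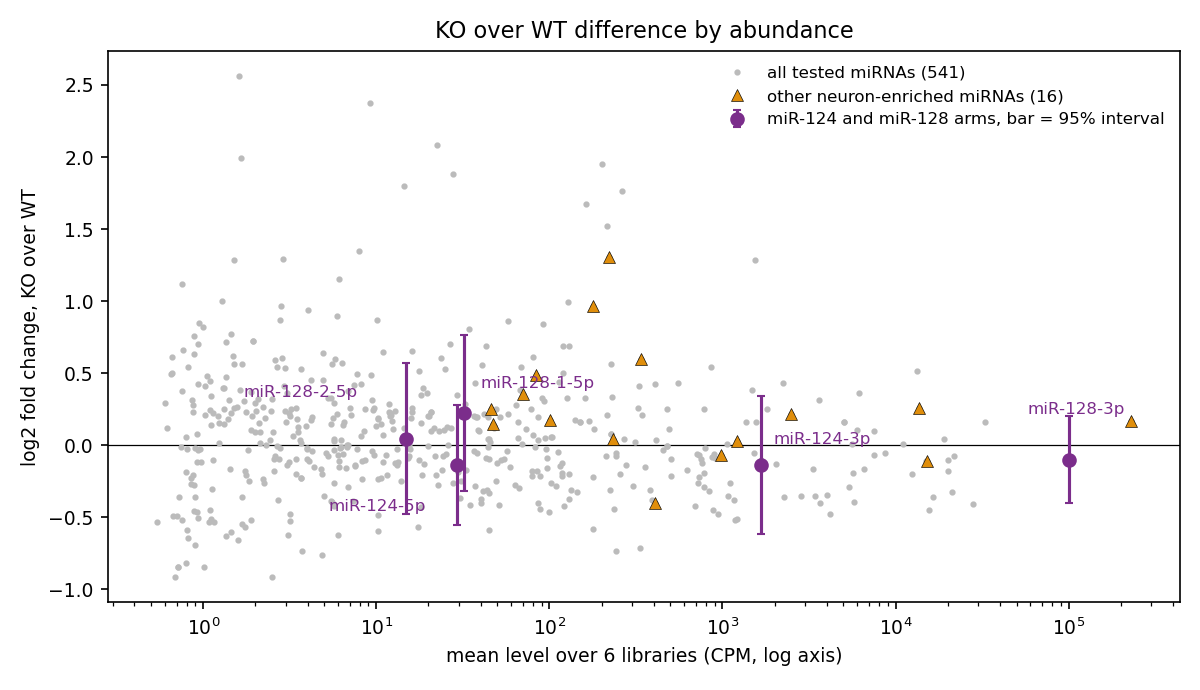
Log2 fold change (KO over WT) against mean level (CPM, log axis) for all 541 tested miRNAs (grey), 16 other neuron-enriched miRNAs (orange triangles) and the miR-124 and miR-128 arms (purple, bar = 95% interval). The 5 arms lie between -0.14 and 0.23 and all their intervals include 0.

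Some markers of other cell types differed widely between the KO libraries. Choroid plexus and multiciliated cell miRNAs (4 of 6 tested, 4 higher, 0 called) summed to 1009, 1023 and 2099 CPM in KO, against 963 to 1033 CPM in WT. Their leading member, miR-204-5p, had 1621 CPM in KO replicate 3, the library with the most miR-124-3p, and between 664 and 766 CPM in all others. Of the 2 untested members, miR-34b-5p had 9, 12 and 15 reads in KO, against 3, 3 and 4 in WT, and miR-449a-5p had 7, 5 and 8 reads in KO, against 15, 6 and 16 in WT. Epithelial and sensory miRNAs (8 of 8 tested, 8 higher, 0 called) summed to 61.6, 2051 and 1996 CPM in KO, against 169 to 724 CPM in WT, led by miR-182-5p. These were lowest in KO replicate 1, the library with the most miR-128 5p reads, where miR-141-3p of that list, named after its values were seen, was at 0. KO replicate 1 was the highest library for 26.6% of all tested miRNAs. KO replicates 2 and 3 lay above the WT range for this list but not for the miR-128 5p arms. The part of these tissues in the values of miR-124-3p and of the miR-128 5p arms was not tested.

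The remaining lists stayed closer together from library to library. Among them only the sums of microglia and leukocyte miRNAs did not overlap between KO and WT, as was so for 15.7% of single tested miRNAs. Oligodendrocyte miRNAs, led by miR-219a-2-3p (4 of 4 tested, 1 higher, 3 lower), summed to 632 to 874 CPM in KO and 857 to 974 CPM in WT. Those of microglia and leukocytes, led by miR-146a-5p (5 of 6 tested, 5 higher), summed to 194 to 219 CPM in KO and 170.1 to 180.3 CPM in WT, and those of endothelial and mural cells, led by miR-143-3p (5 of 5 tested, 5 higher), to 38492 to 44568 CPM in KO and 35236 to 42576 CPM in WT. Erythroid miRNAs, led by miR-486a-5p (4 of 4 tested, 3 higher), summed to 80.3 to 121 CPM in KO and 75.4 to 83.4 CPM in WT. The hindbrain markers miR-10a-5p and miR-10b-5p summed to 54.1 to 100.5 CPM in KO and 66.6 to 74.7 CPM in WT, and miR-196a-5p and miR-196b-5p had at most 4 reads in any library. Liver miR-122-5p stayed under 6 CPM, and muscle miRNAs, led by miR-1a-3p (3 of 3 tested, 3 higher), summed to 211 to 289 CPM in KO and 222 to 238 CPM in WT. The untested miR-223-3p had 13, 3 and 15 reads in KO, against 9, 4 and 10 in WT. Hindbrain and muscle sums were highest in KO replicate 1, the library with the most miR-128 5p reads. Erythroid sums were highest in KO replicate 3, the library with the most miR-124-3p. Microglia and leukocyte sums and endothelial and mural sums were highest in KO replicate 2, and those of oligodendrocytes and liver in WT replicate 3. The part of these tissues in the values of the arms was not tested. No member of these lists was called (edgeR).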

How the data were processed

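Per the labels' protocols, total RNA of whole cortex received adaptors at both ends, went through PCR and size selection on a gel, and was sequenced with single-end reads. The submitters' processing notes name Bowtie, DESeq2 and mm10. Not given in the sources used here: versions, trimming, the handling of reads with several matches and the use of strand. The authors deposited whole-number read counts per mature miRNA for 1182 features, and TPM values, which equal each count over its column total on a common scale and were not tested. No column belonged to no sample.

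The counts were fitted as a whole table in R 4.3.3 with edgeR 4.0.16 (filterByExpr, minimum count 10, TMM, quasi-likelihood with robust estimation), which left 541 features, adjusted by Benjamini-Hochberg at a threshold of 0.05. Alternatives used DESeq2 1.42.0 and limma 3.58.1. Ratios were tested by exact permutation in scipy 1.17.1. The procedure was tested on simulated data. For edgeR these had large changes and the same dispersion in both genotypes, whereas in the real libraries most miRNAs spread more in KO. The simulation therefore checks the code and does not show how well small differences would be found here. Replicate numbers follow accession order. The labels call replicates biological but tie no library to an animal, so p-values measure the spread between these libraries. Intervals of shares cover counting error only, since no molecular identifiers are described. Hairpins were placed with GENCODE M21 (GRCm38, the assembly of mm10). Members and lists were chosen with earlier results of these data known. The named miRNAs are the members, the 3 most alike to each guide, those with a shared seed, the 4 most abundant other neuronal ones and the most abundant of each other list. Other names were chosen after their values were seen or complete the account of a list.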

Additional observations from a re-analysis of the deposited data

How the results depend on the processing

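The 5 arms were refitted under 13 alternatives each, and in none of these 65 fits did an arm reach an adjusted p under 0.05 (lowest 0.0885, miR-124-3p without KO replicate 3). Direction held in 62. The exceptions were miR-128-1-5p without KO replicate 1 (-0.0407) and miR-128-2-5p without KO replicate 1 (-0.147) or WT replicate 1 (-0.0175). With libraries left out, log2 fold changes ranged from -0.381 to -0.0168 for miR-124-3p, from -0.232 to -0.0245 for miR-124-5p, from -0.204 to -0.0300 for miR-128-3p, from -0.0407 to 0.385 for miR-128-1-5p and from -0.147 to 0.181 for miR-128-2-5p. Scaling by total counts without the 5 most abundant miRNAs moved the median of all miRNAs to 0.11 and gave -0.02 for both guides.

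The count of called miRNAs ranged from 0 to 18 with a library left out, with 18 of 560 without KO replicate 3. At an unadjusted p under 0.05, 35 of 541 became 18 of 541 with total counts alone, 56 of 1182 without the count filter and 14 to 97 with a library left out (14 without WT replicate 2, 97 without KO replicate 3). The difference in the miR-124 arm ratio ranged from -0.286 to 0.103, with positive values without KO replicate 1 (0.0622), KO replicate 2 (0.103) or WT replicate 3 (0.0141). That of the 2 guides ranged from -0.119 to 0.348, with negative values without KO replicate 1 (-0.0211) or KO replicate 2 (-0.119). The miR-128 arm ratio (-0.367 to -0.00402), the ratio of its 5p arms (-0.272 to -0.0868) and the summed share (-1.24 to -0.331 percentage points) kept their sign. With miR-124b-3p reads added to miR-124-5p, an alternative chosen after seeing the data, the 3p to 5p ratio averaged 29.1 in KO and 28.9 in WT. Counts of miR-124b-3p and miR-124-5p are nearly the same, so this alternative could hardly change the difference between genotypes. The cause of the shifts between settings was not tested. No paired analysis was possible because the labels give no litter, batch or pairing of KO with WT libraries. With 3 libraries per genotype and 151 to 280 reads of miR-128-2-5p per library, its interval allows folds from 0.718 to 1.48.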
